A study of Arabidopsis thaliana with 6 samples.

Results

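The aquaporin family of Arabidopsis thaliana was followed in 6 RNA-seq libraries of whole seedlings that carry 35S::CUC2-GR. Its members were taken by gene code from the known family, and all 35 were found among the 33602 gene models counted. There were 5 PIP1, 8 PIP2, 10 TIP, 9 NIP and 3 SIP genes. The 3 Dex libraries came from seedlings kept for 6 h in 10 mL of liquid medium to which 10 µL of dexamethasone, at a concentration the labels do not give, had been added, and the 3 no_Dex libraries from seedlings with no treatment. Every seedling in both groups carried the transgene, in which a viral promoter active in most tissues drives the transcription factor CUC2 joined to the hormone-binding part of the glucocorticoid receptor (GR). Dexamethasone binds GR and lets the fusion protein enter the nucleus. Seedlings were at Boyes stage 1.02 and grew in vitro at 21 °C in long days. The labels name no mock treatment and no line lacking the transgene, so a response to dexamethasone or to handling and a response to CUC2-GR cannot be told apart. They do not say how many plants or transgenic lines went into a library.

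Aquaporins are membrane channels that let water, and in some cases small neutral solutes, pass down their gradient. Plasma membrane intrinsic proteins (PIPs) control water flow into and between cells, and PIP1 proteins often reach the membrane only together with PIP2 partners. Tonoplast intrinsic proteins (TIPs) sit in the vacuole membrane and help expanding cells fill their vacuoles. NOD26-like intrinsic proteins (NIPs) carry metalloids such as boric acid and arsenite as well as water or other solutes, and small basic intrinsic proteins (SIPs) lie in the endoplasmic reticulum. In seedlings these channels are known for root water uptake and for the growth of expanding cells.

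The pore of an aquaporin is lined by a pair of loops that usually carry the motif asparagine, proline, alanine (NPA). In the RefSeq coding sequences (TAIR10.1) the codons of NPA stood in the first loop of 30 members and in the second loop of 31, and 27 members had them in both. All 13 PIPs and all 10 TIPs had both. The members that lacked it in at least 1 loop were NIPs and SIPs. The first-loop stretches of 5 members are shown 5′ to 3′ from the spliced coding sequence, with the codons at the position of the motif in capitals.
PIP1-1 first loop: ggacacatcAACCCAGCGgttactttt
TIP1-1 first loop: ggacacgttAACCCTGCCgtcactttc
NIP1-1 first loop: gctcatatcAATCCGGCCgttaccatt
NIP5-1 first loop: gctcacctaAACCCATCActgaccata
SIP1-1 first loop: gctagcttcAATCCTACCggaagcgct
PIP1-1, TIP1-1 and NIP1-1 end the motif with an alanine codon (GCG or GCC). NIP5-1 ends it with TCA and SIP1-1 with ACC. NIP1-1 and its close relative NIP1-2 keep the motif in the first loop and end it with GGA in the second, as their second-loop stretches show.
NIP1-1 second loop: gcgtcgatgAATCCAGGAagaagttta
NIP1-2 second loop: gcatcgatgAATCCAGGAcgaagttta

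Between 26161582 and 29481253 read pairs were counted per library, and 21344 genes passed the filter on low counts. Levels are given as pairs per 1e+06 counted pairs (CPM). Across genes, which are no independent replicates, log2 CPM correlated at 0.994 or 0.995 between any pair of no_Dex libraries. Dex replicates 2 and 3 reached 0.994, and Dex replicate 1 was less like them, at 0.988 and 0.987. Dex replicate 3 differed in seed storage transcripts: 8 seed markers summed to 72.8 CPM there, 1.45 and 3.59 CPM in Dex replicates 1 and 2, and 0.386 to 0.599 CPM in the no_Dex libraries. Over all genes, 1279 (5.99%) were called higher in Dex and 1792 (8.40%) lower by edgeR's quasi-likelihood test, at a Benjamini-Hochberg adjusted p under 0.05. These totals changed when a single library was left out, which also leaves fewer libraries in a group. They were 2339 higher and 2726 lower without Dex replicate 1, 718 and 1041 without Dex replicate 2, and 872 and 1364 without Dex replicate 3. Without no_Dex replicates 1, 2 and 3 in turn they were 688 and 1007, 519 and 785, and 617 and 918. The design text calls the samples biological replicates and does not say what was replicated, so the p-values measure the spread between these samples.

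Most of the abundant aquaporins fell in Dex. Of the 29 members tested, 17 were called lower and 1 higher, where 8.40% of all tested genes were called lower and 5.99% higher. The median log2 fold change (Dex minus no_Dex) of the 29 was -0.49, against 0.01 over all tested genes. The decrease lay in the PIPs and TIPs: all 5 PIP1 genes, 5 of 8 PIP2 genes and 5 of 6 tested TIP genes fell, while 2 of 7 tested NIP genes fell and 1 rose, and none of 3 SIP genes was called; differences between subfamilies were not tested. Together the family took 0.859%, 0.932% and 0.941% of the pairs in Dex replicates 1 to 3, against 1.31%, 1.27% and 1.27% in no_Dex replicates 1 to 3 (exact Clopper-Pearson 95% interval 0.856% to 0.862% in Dex replicate 1, which covers counting error only). The groups did not overlap, and the sum averaged 9106 ± 450.4 CPM in Dex and 12857 ± 221 CPM in no_Dex (SD, n = 3 each), a ratio of 0.708. Among the 2166 genes that averaged at least 100 CPM, 8.59% were called lower and 7.66% higher; 15 aquaporins are among them, of which 12 fell and none rose. Of the 27 members with NPA codons in both loops, 15 were called lower, none higher, 6 were not called and 6 were not tested. Of the other 8, all of them tested, 2 were called lower, 1 higher and 5 were not called. This split largely follows the subfamilies, since all PIPs and TIPs are among the 27. The 2 NIP genes that fell, NIP1-1 and NIP6-1, lack NPA codons in the second loop. The NIP genes with them in both loops, NIP2-1, NIP3-1, NIP4-1 and NIP4-2, were not called or not tested. In whole seedlings, fewer cells of a type and less RNA per cell cannot be told apart.

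**Figure D1:**
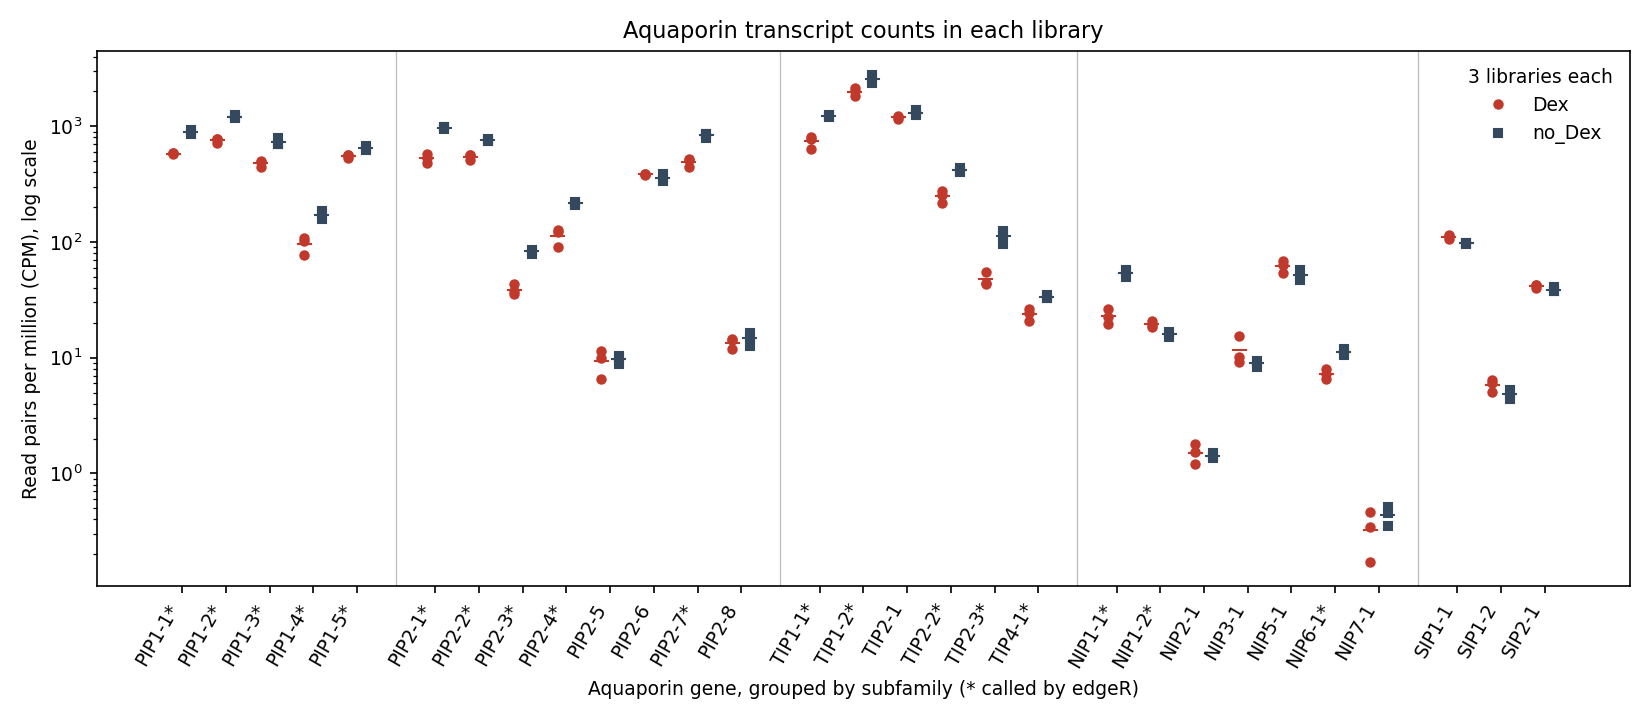
Level (CPM, log axis) of the 29 tested aquaporins in each library, with Dex (circles) left of no_Dex (squares), short lines for the mean of 3 libraries, and an asterisk for genes called by edgeR. For PIP1 genes, and for most PIP2 and TIP genes, the Dex points lie below all no_Dex points, while most NIP points and the SIP1-2 and SIP2-1 points overlap.

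The number of members called lower was between 15 and 17 when any single library was left out, and 17 without Dex replicate 1, the library that stood apart. Dex replicate 1 was the lowest Dex library for 13 of the 17 genes that fell, and no such count is given for all tested genes. The 29 members had a median log2 difference of -0.18 from the other Dex libraries there. By subfamily this median was -0.15 for PIP1, -0.23 for PIP2, -0.26 for TIP, 0.21 for NIP and -0.01 for SIP genes. Without Dex replicate 1 the median log2 fold change of the family was -0.42.

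The PIP1 genes all fell, and in all 5 the 3 Dex values lay below the 3 no_Dex values, which 16.9% of all tested genes showed. Their summed level was 2464 ± 73.3 CPM in Dex and 3647 ± 94.3 CPM in no_Dex (SD, n = 3 each). PIP1-2 (AT2G45960, TAIR10.1 chromosome 2, 18910081 to 18911982, plus strand), a main contributor to hydraulic conductivity of roots and rosettes, was the most abundant of them per length. It had 714, 770.5 and 780.1 CPM in Dex and 1195, 1246 and 1185 CPM in no_Dex. The log2 fold change was -0.69, with an SE of 0.07 (edgeR adjusted p = 0.000927). PIP1-1 had 582, 587 and 575 CPM in Dex and 927, 887 and 852 CPM in no_Dex. Its 3 Dex libraries lay closer together than those of any other PIP gene relative to their mean, and it fell by 0.62 on the log2 scale (edgeR, SE 0.06, adjusted p = 0.000942). PIP1-3 had 447, 489.8 and 505 CPM in Dex and 698, 788 and 706 CPM in no_Dex, and fell by 0.62 (edgeR, SE 0.08, adjusted p = 0.00261). PIP1-4, which also conducts hydrogen peroxide and carbon dioxide, had the lowest log2 fold change of the subfamily. It had 76.7, 101 and 109 CPM in Dex and 157, 174 and 186 CPM in no_Dex, with Dex replicate 1 the lowest library. Its log2 fold change was -0.86 (edgeR, SE 0.13, adjusted p = 0.00455). PIP1-5 had the smallest change of them. It had 564, 534 and 559 CPM in Dex and 677, 642 and 619.8 CPM in no_Dex, so the groups did not overlap but lay close. It fell by 0.24 (edgeR, SE 0.06, adjusted p = 0.0438), a call lost without Dex replicate 2 or 3 (adjusted p = 0.145 and 0.0925) or without no_Dex replicate 1, 2 or 3 (0.125, 0.133 and 0.0773).

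In the PIP2 subfamily 5 genes fell, and 3 (PIP2-5, PIP2-6 and PIP2-8) were not called. The sum was 2122 ± 142 CPM in Dex and 3237 ± 31.9 CPM in no_Dex (SD, n = 3 each). PIP2-1 (AT3G53420, chromosome 3, 19803473 to 19805730, minus strand), a water channel of roots and guard cells, was the most abundant PIP2 gene per length in no_Dex. It had 485, 532 and 571 CPM in Dex and 989, 980.1 and 948 CPM in no_Dex. No Dex library came near the no_Dex range, and the log2 fold change was -0.89 (edgeR, SE 0.08, adjusted p = 0.000624). PIP2-7 had 444, 521 and 509.5 CPM in Dex and 785, 859.6 and 854 CPM in no_Dex, and fell by 0.77 (edgeR, SE 0.08, adjusted p = 0.00118). PIP2-4, expressed mainly in roots, had 90.1, 127 and 122 CPM in Dex and 209.7, 222 and 212 CPM in no_Dex. Dex replicate 1 was again the lowest, and the log2 fold change was -0.94 (edgeR, SE 0.13, adjusted p = 0.00276).

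PIP2-2 and PIP2-3 are neighbours on chromosome 2 with 2612 bases between them, and their coding sequences differ at 45 of 858 bases (94.8% identity). The longest stretch without a difference runs over 242 bases, so reads from there match both genes. The 60 coding bases, numbered from the start codon as 414 to 473, where the pair differs most are shown with the differing bases in capitals, because the separate counts of these genes rest on such sites.
PIP2-2 coding sequence: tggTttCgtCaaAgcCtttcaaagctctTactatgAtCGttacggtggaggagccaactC
PIP2-3 coding sequence: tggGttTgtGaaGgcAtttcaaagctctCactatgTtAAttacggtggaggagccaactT
Reads in counted pairs numbered 1.08 and 1.09 times the single reads counted for PIP2-2 and PIP2-3, against 0.965 to 0.995 times for the other members tested. Some of their pairs were therefore counted with a mate that was not counted as a single read, and how pairs divide between these genes is uncertain. With that limit, PIP2-2 had 509, 559 and 559 CPM in Dex and 778, 749.5 and 739.9 CPM in no_Dex. It fell by 0.49 on the log2 scale (edgeR, SE 0.07, adjusted p = 0.00351). PIP2-3, first described as the desiccation-responsive gene RD28, had 35.3, 42.9 and 37.7 CPM in Dex and 83.6, 86.0 and 79.2 CPM in no_Dex. It fell by 1.11 on the log2 scale (edgeR, SE 0.08, adjusted p = 0.000344). Counting single reads in place of pairs kept both genes called lower.

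The PIP2 genes that were not called differed widely in level. PIP2-6, found mainly in shoots, had 377, 386 and 390.2 CPM in Dex and 337, 343 and 384 CPM in no_Dex. The groups overlapped, and the 95% interval of its log2 fold change ran from -0.05 to 0.26. PIP2-5, which drought is known to induce, had 6.51, 9.94 and 11.4 CPM in Dex and 8.75, 9.92 and 10.4 CPM in no_Dex, with an interval of -0.51 to 0.37. The point estimate for PIP2-5 was -0.07 with all libraries and 0.14 without Dex replicate 1. PIP2-8 had 11.8, 14.5 and 14.1 CPM in Dex and 12.6, 16.5 and 14.9 CPM in no_Dex, with an interval of -0.41 to 0.15. The intervals of PIP2-5 and PIP2-8 both overlap that of PIP2-2, which fell by 0.49 (95% interval -0.65 to -0.33). Differences between these genes were not tested.

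**Figure D2:**
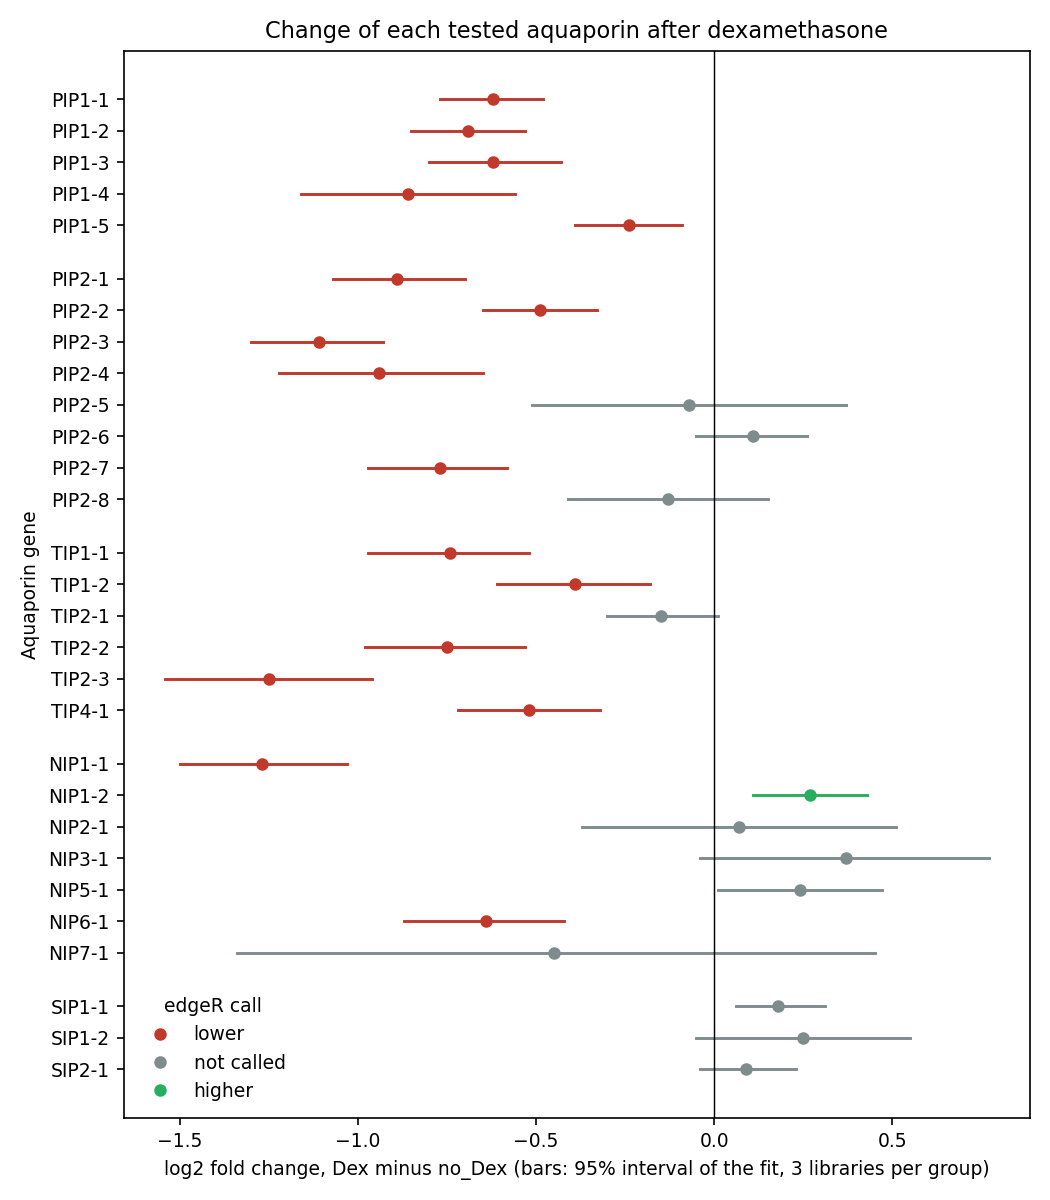
Log2 fold change (Dex minus no_Dex, x axis) of each tested aquaporin, with 95% intervals from the fit on 3 libraries per group and colours for the edgeR call. The PIP and TIP genes lie left of 0 except PIP2-6 at 0.11, and the SIP genes lie right of it at 0.09 to 0.25.

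The TIP genes held the largest part of the family's counts, 4237 ± 252 CPM in Dex and 5688 ± 267 CPM in no_Dex (SD, n = 3 each). TIP1-2 (AT3G26520, chromosome 3, 9722443 to 9723904, minus strand) was the most abundant aquaporin in every library. It had 1810.5, 2009 and 2129 CPM in Dex and 2767, 2385 and 2600.0 CPM in no_Dex, with no overlap of the groups. It fell by 0.39 on the log2 scale (edgeR, SE 0.09, adjusted p = 0.0291), a call lost without Dex replicate 2 (adjusted p = 0.0816) or without no_Dex replicate 1, 2 or 3 (0.0942, 0.0604 and 0.0965). TIP1-1, the gamma-TIP of vegetative vacuoles, had 639, 803 and 783 CPM in Dex and 1237, 1208 and 1256 CPM in no_Dex. The Dex libraries were spread more than the no_Dex libraries, and the log2 fold change was -0.74 (edgeR, SE 0.10, adjusted p = 0.00260).

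The TIP2 genes, the delta-TIPs, had log2 fold changes between -1.25 and -0.15. TIP2-3, which is known to conduct ammonia, had 43.0, 55.1 and 44.1 CPM in Dex and 124, 116 and 95.7 CPM in no_Dex. It fell by 1.25 (edgeR, SE 0.13, adjusted p = 0.000898), the lowest log2 fold change of the TIPs. TIP2-2 had 218, 278 and 254 CPM in Dex and 438, 403 and 412 CPM in no_Dex, and fell by 0.75 (edgeR, SE 0.10, adjusted p = 0.00238). TIP2-1 had 1214, 1196 and 1160.1 CPM in Dex and 1373, 1296 and 1253 CPM in no_Dex. Its Dex values lay below its no_Dex values, but it was not called, with a log2 fold change of -0.15 and a 95% interval of -0.30 to 0.01 (edgeR adjusted p = 0.185). TIP4-1, a gene of roots, had 20.7, 26.1 and 24.2 CPM in Dex and 32.9, 33.0 and 35.0 CPM in no_Dex. It fell by 0.52 (edgeR, SE 0.09, adjusted p = 0.00783).

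**Figure D3:**
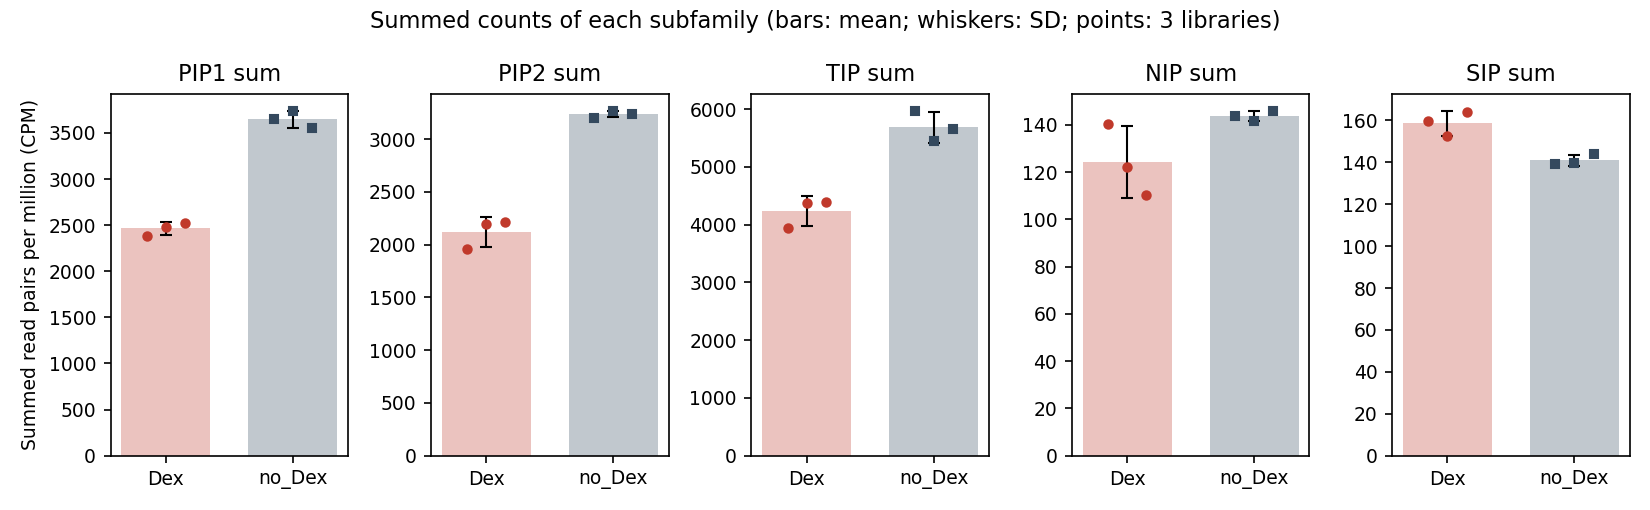
Summed CPM of the members of each subfamily in 3 Dex and 3 no_Dex libraries (points), with bars for the mean and whiskers for the SD; each panel has its own axis from 0. The PIP1, PIP2 and TIP sums are lower in Dex without overlap, the NIP sums are 110.4 to 140.6 CPM in Dex and 141.8 to 146.0 CPM in no_Dex, and the SIP sums are higher in Dex.

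The NIP genes were far less abundant, and they did not move together. Their sum was 124 ± 15.2 CPM in Dex and 144 ± 2.07 CPM in no_Dex (SD, n = 3 each). NIP1-1 (AT4G19030, chromosome 4, 10421521 to 10423508, minus strand), known for arsenite and antimonite uptake by roots, had the lowest log2 fold change of the tested aquaporins, within its SE of that of TIP2-3. It had 26.2, 22.4 and 19.4 CPM in Dex and 49.7, 56.9 and 55.8 CPM in no_Dex, a log2 fold change of -1.27 (edgeR, SE 0.10, adjusted p = 0.000394). NIP1-2 (AT4G18910, chromosome 4, 10366044 to 10368510, plus strand), whose protein carries aluminium malate, is its nearest relative in the family, with 85.0% identity over 882 coding bases, and lies 53010 bases away. NIP1-2 was the member called higher, with 20.6, 18.3 and 19.3 CPM in Dex and 15.1, 15.9 and 16.8 CPM in no_Dex. It rose by 0.27 (edgeR, SE 0.07, adjusted p = 0.0373). That call was lost by the DESeq2 Wald test (adjusted p = 0.0676). By edgeR it was lost when Dex replicate 2 or 3 was left out (adjusted p = 0.0575 and 0.0950), and when no_Dex replicate 1, 2 or 3 was (0.122, 0.120 and 0.0722).

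Of the boric acid channels, NIP6-1, which directs boron to young shoot tissues, had 7.95, 6.54 and 7.23 CPM in Dex and 10.5, 11.9 and 11.2 CPM in no_Dex. It fell by 0.64 on the log2 scale (edgeR, SE 0.10, adjusted p = 0.00490). NIP5-1, the boric acid channel of root uptake, was the most abundant NIP gene per length in Dex. It had 68.4, 62.8 and 53.4 CPM in Dex and 57.4, 46.7 and 50.9 CPM in no_Dex, and the groups overlapped. It was not called (0.24 on the log2 scale with SE 0.10, edgeR adjusted p = 0.157), and passed with the replicate block and length and GC offsets together (adjusted p = 0.0476). NIP3-1 had 15.4, 10.1 and 9.25 CPM in Dex and 9.06, 8.31 and 9.37 CPM in no_Dex. Dex replicate 1 alone lay above the other libraries, and the log2 fold change was 0.37 with all libraries and 0.11 without it, neither called. NIP2-1 averaged 1.51 ± 0.294 CPM in Dex and 1.42 ± 0.0618 CPM in no_Dex, and NIP7-1, an anther gene, averaged 0.326 ± 0.145 CPM in Dex and 0.439 ± 0.0796 CPM in no_Dex (SD, n = 3 each). Neither was called, with log2 intervals of -0.37 to 0.51 and -1.34 to 0.45.

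None of the SIP genes was called by edgeR, DESeq2 or limma, and all 3 had a positive log2 fold change, of which 1 (SIP1-1) had an unadjusted edgeR p under 0.05. SIP1-1, the most abundant SIP gene per length, had 112, 106 and 115 CPM in Dex and 96.4, 97.2 and 97.9 CPM in no_Dex. The groups did not overlap, as in 19.8% of all tested genes with Dex above, and the log2 fold change was 0.18 (edgeR, SE 0.05, adjusted p = 0.0605). It was called higher without Dex replicate 1 (adjusted p = 0.0333). SIP2-1 had 42.6, 39.9 and 42.8 CPM in Dex and 37.7, 37.8 and 40.9 CPM in no_Dex, with a 95% interval of -0.04 to 0.23. SIP1-2 had 5.10, 6.38 and 6.02 CPM in Dex and 5.26, 4.42 and 4.90 CPM in no_Dex, with an interval of -0.05 to 0.55. Summed, the SIP genes had 159 ± 5.92 CPM in Dex and 141 ± 2.52 CPM in no_Dex (SD, n = 3 each).

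The remaining 6 members had too few pairs to be tested, and they are genes known from pollen or seeds. TIP5-1 and NIP4-1 had no pair in any library, which allows up to 3 pairs, or 0.102 to 0.115 CPM. TIP1-3 had 1, 1 and 2 pairs in Dex and 0, 2 and 0 in no_Dex. NIP4-2 had 6, 9 and 7 pairs in Dex and 6, 6 and 3 in no_Dex. Of 6 pollen markers, 5 (VGD1, PPME1, MGH3, DUO1 and AGL66) were at 0 in every library, and VEX1 was not called. TIP3-1, the alpha-TIP of protein storage vacuoles, had 2, 8 and 46 pairs in Dex and 2, 0 and 0 in no_Dex, and TIP3-2, the beta-TIP, had 0, 0 and 9 pairs in Dex and 0, 0 and 1 in no_Dex. Most TIP3 pairs thus came from Dex replicate 3. The seed storage protein genes CRA1 and CRU3 were highest in the same library, at 37.4 and 27.3 CPM. They had 0.585 and 0.0344 CPM in Dex replicate 1 and 2.1 and 0.229 CPM in Dex replicate 2. In no_Dex, CRA1 had at most 0.176 CPM and CRU3 was at 0. The part of seed tissue in the TIP3 values was not tested. Of the 8 seed markers, only CRA1 had enough pairs to be tested. It was not called (log2 fold change 7.50, edgeR, SE 2.14, adjusted p = 0.0520). Its 3 Dex values lay above its 3 no_Dex values, as in 19.8% of all tested genes. With other settings up to 3 seed markers were called higher. Without Dex replicate 3, 16 aquaporins were called lower.

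**Figure D4:**
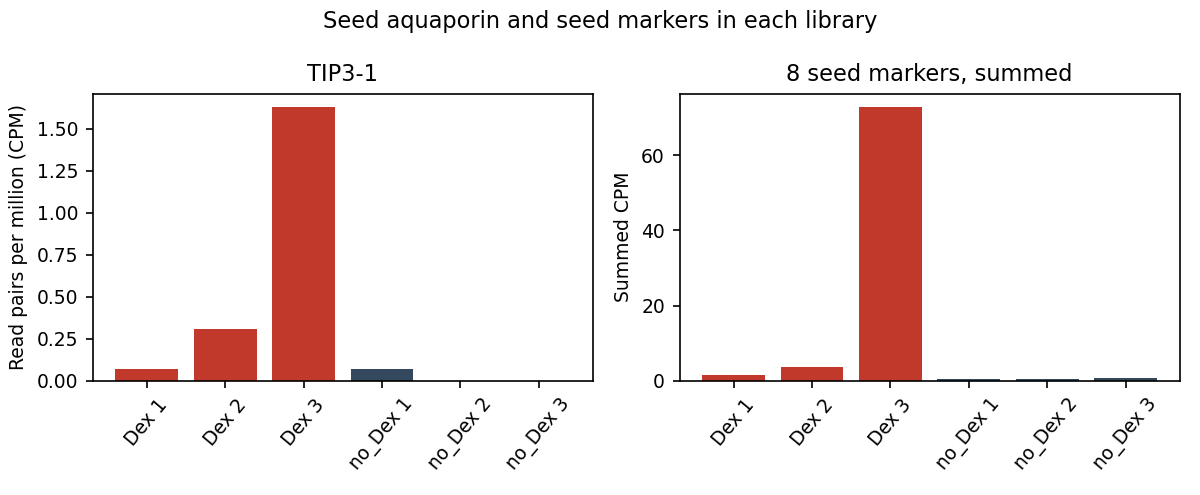
CPM of TIP3-1 (left) and the summed CPM of 8 seed markers (right) in the 3 Dex and 3 no_Dex libraries, as bars from 0. Dex replicate 3 is the highest in both panels, at 1.63 CPM and 72.8 CPM.

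Ratios between relatives in the same library do not depend on how libraries are scaled. These pairs were chosen after their values were seen, so the ratios are given without a test. In the first 3, a gene called lower is set over a gene not called lower, so lower Dex ratios follow from the choice. The nearest relatives of TIP2-3 and PIP2-1 by coding sequence are TIP2-2 and PIP2-2 (81.5% and 86.1% identity), which were also called lower. Per length (RPKM, CPM per kilobase of gene model), NIP1-1 stood at 1.35, 1.30 and 1.06 times NIP1-2 in Dex and at 3.49, 3.78 and 3.52 times in no_Dex. PIP2-1 stood at 1.17, 1.25 and 1.33 times PIP2-6 in Dex and at 2.66, 2.59 and 2.24 times in no_Dex. TIP2-3 stood at 0.0386, 0.0502 and 0.0414 times TIP2-1 in Dex and at 0.0982, 0.0979 and 0.0832 times in no_Dex. In each of these pairs the 3 Dex ratios lay below the 3 no_Dex ratios. PIP2-3 stood at 0.0693, 0.0767 and 0.0674 times PIP2-2 in Dex and at 0.107, 0.115 and 0.107 times in no_Dex, with the counting limit given above.

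**Figure D5:**
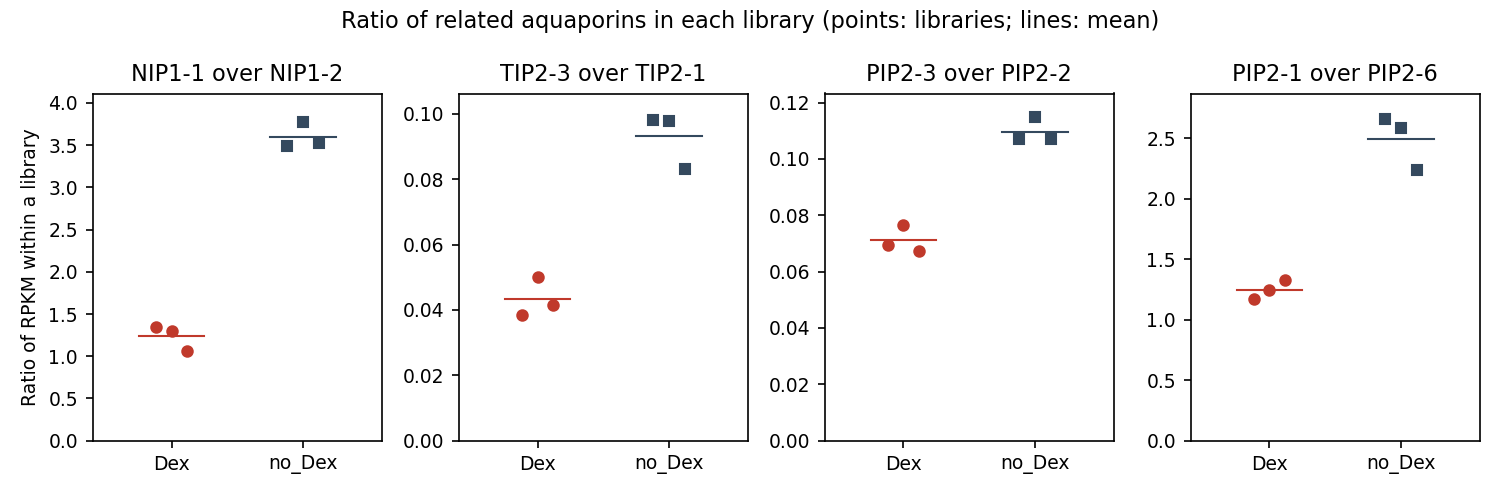
Ratio of RPKM between 4 pairs of related aquaporins within each library (points), for 3 Dex and 3 no_Dex libraries, with lines for the mean and axes from 0. In each panel the Dex points lie below the no_Dex points.

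By level per length the family spans the whole range of the data, from the 11th most abundant gene model in no_Dex to genes without a pair. TIP1-2 led with 1651 ± 134 RPKM in Dex and 2151 ± 159.5 RPKM in no_Dex (SD, n = 3 each). In no_Dex, TIP1-1 (1165 ± 23.0 RPKM) and TIP2-1 (1142 ± 53.0 RPKM) followed and overlapped. In Dex the order of this pair changed, with TIP2-1 at 1039 ± 24.1 RPKM above TIP1-1 at 700.4 ± 84.4 RPKM, without overlap. PIP1-2 came next at 581 ± 27.5 RPKM in Dex and 930.3 ± 25.3 RPKM in no_Dex. PIP2-1, PIP1-1, PIP2-7 and PIP2-2 stood at 659 to 708 RPKM in no_Dex, where each overlapped its neighbour in that order. PIP2-1 held the ninth place in Dex, at 385 ± 31.2 RPKM, and the fifth in no_Dex, at 708 ± 15.8 RPKM. PIP1-5, at 489 ± 14.4 RPKM in Dex and 573 ± 25.5 RPKM in no_Dex, held the fifth place in Dex and the ninth in no_Dex. SIP1-1 was the highest SIP gene at 101 ± 4.26 RPKM in Dex and 88.3 ± 0.710 RPKM in no_Dex. The highest NIP gene was NIP5-1 in Dex, at 40.5 ± 4.99 RPKM, and NIP1-1 in no_Dex, at 46.2 ± 3.31 RPKM.

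The 250 bases before the annotated start of each member were read from the RefSeq genome (TAIR10.1). Both strands were searched. The motif CACG, read on the other strand as CGTG, is the core of the sites bound by NAC proteins such as CUC2. The motif CATGTG, read on the other strand as CACATG, is known from drought-related NAC proteins. The motif CACGTG is the G-box, and TGTCTC, read on the other strand as GAGACA, is known from auxin response factors. A match to the G-box is also a match to CACG. The core was in 15 of the 35 aquaporin promoters and in 45.6% of 27443 promoters of protein-coding genes, and CATGTG in 11 of 35 and in 11.1%. CACGTG was in none of the 35 (6.5% of all promoters) and TGTCTC in 1 (10.9%). Of the 17 genes that fell, 4 had CACG and 3 had CATGTG, and of the 11 tested genes that were not called, 8 had CACG and 5 had CATGTG. These matches describe the letters of the windows and no binding was measured. Promoters of 3 of the pairs whose ratios are given above, which were chosen after their values were seen, are shown 5′ to 3′ on the gene's strand, with matches to the motifs in capitals.
NIP1-1 promoter, chr4:10423509-10423758, minus strand: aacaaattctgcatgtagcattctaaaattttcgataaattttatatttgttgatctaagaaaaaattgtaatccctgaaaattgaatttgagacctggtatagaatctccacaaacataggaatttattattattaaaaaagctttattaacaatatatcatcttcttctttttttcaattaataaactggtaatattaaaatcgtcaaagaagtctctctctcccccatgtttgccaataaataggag
NIP1-2 promoter, chr4:10365794-10366043, plus strand: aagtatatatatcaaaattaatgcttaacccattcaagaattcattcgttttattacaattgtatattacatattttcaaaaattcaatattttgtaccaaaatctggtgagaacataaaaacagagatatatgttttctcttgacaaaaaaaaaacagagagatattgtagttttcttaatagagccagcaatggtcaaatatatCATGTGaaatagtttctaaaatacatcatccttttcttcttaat
TIP2-3 promoter, chr5:19249623-19249872, minus strand: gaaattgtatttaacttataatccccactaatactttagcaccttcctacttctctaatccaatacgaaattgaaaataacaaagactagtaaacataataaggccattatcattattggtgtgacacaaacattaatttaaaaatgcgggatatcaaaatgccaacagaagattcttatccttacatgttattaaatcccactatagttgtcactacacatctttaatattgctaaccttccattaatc
TIP2-1 promoter, chr3:5505110-5505359, plus strand: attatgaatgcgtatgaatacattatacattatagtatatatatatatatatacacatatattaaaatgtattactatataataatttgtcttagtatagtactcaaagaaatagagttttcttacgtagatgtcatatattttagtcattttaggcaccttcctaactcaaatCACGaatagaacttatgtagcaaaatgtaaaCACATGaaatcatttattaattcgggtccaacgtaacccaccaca
PIP2-1 promoter, chr3:19805731-19805980, minus strand: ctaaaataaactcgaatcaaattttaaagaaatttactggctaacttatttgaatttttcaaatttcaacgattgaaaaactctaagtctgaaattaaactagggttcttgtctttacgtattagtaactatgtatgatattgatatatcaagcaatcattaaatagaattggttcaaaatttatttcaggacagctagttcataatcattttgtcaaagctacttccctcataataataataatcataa
PIP2-6 promoter, chr2:16291030-16291279, plus strand: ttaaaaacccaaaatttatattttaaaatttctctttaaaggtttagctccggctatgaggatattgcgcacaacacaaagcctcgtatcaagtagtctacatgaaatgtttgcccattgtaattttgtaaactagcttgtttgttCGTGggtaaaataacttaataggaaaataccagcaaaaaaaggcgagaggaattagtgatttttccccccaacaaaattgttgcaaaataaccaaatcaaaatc
Among these 6, NIP1-1, TIP2-3 and PIP2-1, which fell, had no match, while NIP1-2 had CATGTG, TIP2-1 had CACG and CACATG, and PIP2-6 had CGTG. Other related pairs did not divide in this way. PIP2-7, which fell, had 1 match to CACG. PIP2-8, which was not called, had 1 match to CACG and 1 to CATGTG. NIP6-1, which fell, had 2 matches to CACG and 1 to CATGTG, beside 1 match to CACG in NIP5-1, which was not called. PIP2-2 and PIP2-3 both fell, so they could not divide by call, and neither promoter had a match.

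Genes that work beside aquaporins were read from the same fit. Of 9 tested genes of aquaporin trafficking and regulation, 1 rose and none fell (median log2 fold change 0.00, against 0.01 over all genes; 5.99% of all genes were called higher). The gene that rose was RMA1, an ubiquitin ligase of the endoplasmic reticulum known to retain PIP2-1 protein there and lower the amount of that protein. Only RNA was measured here. RMA1 had 49.7, 42.7 and 39.4 CPM in Dex and 32.0, 27.3 and 25.5 CPM in no_Dex, and rose by 0.62 on the log2 scale (edgeR, SE 0.11, adjusted p = 0.00788). The count of genes that rose was 2 without Dex replicate 1 and 2 with length and GC offsets. Of 13 vacuolar pumps and carriers, 2 rose and none fell (median 0.03), against the same 5.99% of all tested genes called higher. They were CLC-A, the vacuolar nitrate exchanger (266, 253 and 274 CPM in Dex, against 178, 169 and 182 CPM in no_Dex), and TDT, the vacuolar malate transporter (192, 158 and 172 CPM in Dex, against 152, 125 and 133 CPM in no_Dex). CLC-A rose by 0.57 (edgeR adjusted p = 0.00104) and TDT by 0.34 (adjusted p = 0.0454), and only 1 rose without Dex replicate 3, no_Dex replicate 2 or no_Dex replicate 3.

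Of 8 plasma membrane proton pumps and potassium channels, 2 fell and none rose, where 8.40% of all tested genes were called lower and 5.99% higher (median -0.15, against 0.01 over all genes). The potassium transporter HAK5 had 2.38, 2.64 and 3.90 CPM in Dex and 5.70, 6.07 and 6.38 CPM in no_Dex and fell by 1.03 (edgeR adjusted p = 0.00939). The guard cell channel KAT1 had 11.7, 12.9 and 11.1 CPM in Dex and 20.2, 17.3 and 18.0 CPM in no_Dex and fell by 0.65 (edgeR adjusted p = 0.00316). Of 5 tested boron exporters, 1 fell and none rose (median -0.18), against the same 8.40% and 5.99% of all tested genes. BOR5 had 0.551, 0.879 and 0.744 CPM in Dex and 1.87, 1.89 and 1.69 CPM in no_Dex and fell by 1.34 (edgeR adjusted p = 0.00593). Without Dex replicate 1, 2 boron exporters fell. With at least 1 CPM required in all libraries none was called lower, a filter that BOR5 does not pass. With the replicate number as a block 1 rose, and 1 rose with length and GC offsets, without and with the block.

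Markers of roots and of photosynthetic cells were read beside the family, because several members that fell are expressed mainly in roots. Of 10 root markers, 2 fell (EXPA7 by 0.48 and XAL1 by 1.83 on the log2 scale) and none rose, with a median of -0.22, where 8.40% of all tested genes were called lower and the median over all genes was 0.01. Their sums were 418, 408 and 422 CPM in Dex and 533, 478 and 469 CPM in no_Dex. With the replicate block, and by the DESeq2 Wald test, 5 of them fell. Leaving out Dex replicate 1 gave 4 that fell and 1 that rose, and leaving out any no_Dex library gave 1 that fell. Of 10 markers of photosynthetic cells, 1 fell (LHCB3, by 0.83) and none rose, with a median of -0.31. That share is near the 8.40% of all tested genes called lower. All 10 log2 fold changes were negative, as were 10305 of the 21344 over all tested genes. In 4 of the 10 the 3 Dex values lay below the 3 no_Dex values, as in 16.9% of all tested genes, and in 6 they overlapped. The sums of the 10 markers were 5728, 8852 and 8709.5 CPM in Dex and 9640.3, 9657 and 8714 CPM in no_Dex. Dex replicate 1 was thus the lowest library here as well. With the block 2 of them fell, and 3 fell when Dex replicate 1 was left out. When any no_Dex library was left out, edgeR called none of them lower. The part of root or leaf tissue in the change of the aquaporins was not tested.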

How the data were processed

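RNA was measured in 3 Dex and 3 no_Dex libraries of polyA RNA, made as unstranded paired-end TruSeq libraries per the labels' protocols. Bowtie2, with no version stated, and the build TAIR10 are named in the submitters' processing notes. For each gene model the authors deposited a raw count of read pairs and, in another column, of single reads. A further deposited column of another unit holds the model length in bases, per the file headers. Reads with equal best and second-best scores were removed per the file headers, so near-identical genes are counted in part, and without strand, overlapping antisense genes are counted together.

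From the pair counts, genes passing filterByExpr (minimum count 10, minimum total 15) were tested with edgeR 4.0.16 in R 4.3.3 (quasi-likelihood test, two-sided, TMM, Benjamini-Hochberg over 21344 genes, adjusted p under 0.05). All 6 libraries were used, and intervals of 95% used 8.19 degrees of freedom. CPM is pairs per 1e+06 counted pairs, and RPKM divides it by the deposited length in kilobases; neither carries a TMM factor. Levels were computed for all 33602 models, fold changes for the tested genes, and both are printed for the aquaporins and genes beside them. The members and lists were chosen with earlier results of these data known, and 1 gene listed as SYP61 was left out because its code belongs to another gene. All 35 aquaporins matched RefSeq (TAIR10.1), from which positions, coding sequences and promoters were read. The files carry no coordinates, and 6 of the 35 had a RefSeq transcript of the deposited length. Aquaporin names are written with a hyphen, as in UniProt (PIP1-1), and the names were given by hand to the gene codes. Named genes were all 35 members and, in the other lists, the genes called.

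Each gene's log2 CPM was centred on its group mean, and the deviations were correlated across genes between Dex and no_Dex samples. The correlations were weak, at 0.171, 0.119 and 0.125 for the same replicate number and at most 0.0177 between other numbers. Centring makes the deviations in a group cancel out, so part of this contrast is built in. The fit with the replicate number as a block is treated as paired. Other alternatives were DESeq2 1.42.0 (size factors, Wald test), limma 3.58.1 (voom), library size, upper-quartile factors, other filters, single reads and leaving out each library. Length and GC offsets, without and with the block, were added after seeing the data. The scripts were tested on simulated data. Totals per library give a precision of 3 pairs, or 0.102 to 0.115 CPM, for a count of 0; binomial intervals and this limit cover counting error only.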

Additional observations from a re-analysis of the deposited data

How the results depend on the processing

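The number of aquaporins called lower was 17 in each alternative that kept all 6 libraries, and 15 to 17 when 1 library was left out. Of the 17 genes, 15 kept their call under all 17 alternatives, and PIP1-5 and TIP1-2 lost theirs without single libraries. Over the alternatives their log2 fold changes ran from -0.28 to -0.20 and from -0.46 to -0.32. The number called higher was 1, and 0 by the DESeq2 Wald test, for the family and for the NIP subfamily alike. With 1 library left out it was 0 to 2 for the family, 0 to 1 for the NIP and 0 to 1 for the SIP subfamily. Over all genes, leaving out 1 library gave 519 to 2339 higher and 785 to 2726 lower. With the replicate number as a block, 17 aquaporins were lower and 1 higher, and the block changed no aquaporin call. With length and GC offsets, chosen after seeing the data, 17 were lower. With the block and the offsets together NIP1-2 lost its call (adjusted p = 0.0501) and NIP5-1 gained one (adjusted p = 0.0476). The cause of these differences was not tested. Counts of a few pairs limit what can be said of NIP7-1 and of the 6 members not tested.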
